A study of Mus musculus with 33 samples.

Results

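Potassium channel genes were followed across the CA1 subregion of the mouse hippocampus, the output field that memory tasks such as the water maze depend on. The set held 52 genes, fixed by a list of gene names and read by subfamily, out of 38355 genes in the count files of the aged animals and 40678 loci in the FPKM files of the young animals. All 52 were found in both kinds of file and all passed the filters on low values, so no member was dropped. They comprised voltage-gated pore subunits with their beta, KChIP and silent partners, the EAG, ERG and ELK channels, inward rectifiers with the KATP regulatory subunit Abcc8, K2P leak channels, and channels opened by calcium or sodium.

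RNA-seq libraries came from 5 groups. APP mice carried transgenes driven by the neuronal Thy1 promoter, mutant human APP among them, on a C57BL/6 background, and were females of 8 to 10 months. They received JQ1 at 50 mg/kg intraperitoneally for 10 days (6 animals) or vehicle, 10% DMSO, for 10 days (6 animals). WT animals of the same age received vehicle for 10 days; 5 are labelled, 4 were analysed, and replicate 2 was not analysed here. The strain field of these WT animals names the APP line, whereas their titles say WT. Young WT mice (C57B/6JRj males of 3 months) received JQ1 at 50 mg/kg for 13 days (8 animals) or vehicle for 13 days (8 animals). All animals of these experiments had been trained in the water maze and were killed the day after its probe test, so no group was untrained. JQ1 is a small molecule that displaces BET bromodomain proteins from acetylated chromatin. The aged and young experiments thus differed in genotype, age, sex, treatment time and unit, and those factors cannot be told apart between them.

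Potassium channels let potassium leave the cell, which sets the resting potential, ends action potentials and limits repetitive firing. The pore is formed by 4 subunits or subunit domains, each of which contributes a short loop with a conserved selectivity filter, and auxiliary subunits alter gating and traffic. In CA1 pyramidal neurons, A-type Kv4 channels damp dendritic signals, Kv7 and SK channels control adaptation of firing, and G-protein-gated inward rectifiers carry slow inhibition, while Kcnj10 and Kcnj16 serve potassium uptake in astrocytes.

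The pore loops of the 7 channel genes on which the results turn are shown so that relatives with different values can be compared. Each line gives 99 bases of coding sequence, 5′ to 3′ on the gene's own strand, in the GENCODE M21 annotation of GRCm38, and capitals mark the 3 codons at the core of the selectivity filter. The loops lie in exon 7 of 11 of Kcnh1 at chr1:192337715-192337813 (plus strand), exon 7 of 11 of Kcnh5 at chr12:75087421-75087519 (minus), exon 7 of 15 of Kcnh2 at chr5:24325510-24325608 (minus), exon 11 of 32 of Kcnt1 at chr2:25894328-25894426 (plus), exon 9 of 28 of Kcnt2 at chr1:140425239-140425337 (plus), exon 2 of 2 of Kcnj2 at chr11:111072168-111072266 (plus) and exon 8 of 31 of Kcnma1 at chr14:23528368-23528466 (minus). All 7 windows are coding.
Kcnh1: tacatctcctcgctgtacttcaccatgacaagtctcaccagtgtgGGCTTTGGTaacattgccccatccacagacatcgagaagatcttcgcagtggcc
Kcnh5: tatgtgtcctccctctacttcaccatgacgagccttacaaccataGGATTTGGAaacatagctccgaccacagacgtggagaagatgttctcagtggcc
Kcnh2: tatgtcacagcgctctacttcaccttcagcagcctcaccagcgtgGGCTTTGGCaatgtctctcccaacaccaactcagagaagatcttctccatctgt
Kcnt1: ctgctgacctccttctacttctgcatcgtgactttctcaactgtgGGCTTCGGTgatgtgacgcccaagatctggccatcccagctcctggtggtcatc
Kcnt2: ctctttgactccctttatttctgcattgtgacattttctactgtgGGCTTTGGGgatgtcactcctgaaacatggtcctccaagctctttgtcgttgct
Kcnj2: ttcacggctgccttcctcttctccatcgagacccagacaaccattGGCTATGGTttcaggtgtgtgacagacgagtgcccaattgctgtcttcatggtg
Kcnma1: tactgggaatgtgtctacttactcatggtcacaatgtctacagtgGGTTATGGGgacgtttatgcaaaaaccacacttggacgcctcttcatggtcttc

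The EAG relatives Kcnh1 and Kcnh5 were identical at 76 of 99 bases of this loop (76.8%), and Kcnh5 and the ERG gene Kcnh2 at 65.7%. The sodium-activated pair Kcnt1 and Kcnt2 was identical at 68 bases (68.7%). Base composition differed more over the whole coding sequence: the GC content at codon position 3 was 76.1% in Kcnt1 and 43.8% in Kcnt2, and 72.8% in Kcnh2, 71.3% in Kcnh1 and 56.1% in Kcnh5. These relatives are compared below by expression and by GC content.

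Levels were compared between genes per length only, by the mean FPKM of the young vehicle mice. Kcnab2, a beta subunit of Kv1 channels, was the highest at 267 ± 36.9 FPKM (SD, n = 8), at a locus that the files join with Gm16334. The next in order were Kcnab1 (63.3), the BK channel pore Kcnma1 (60.9), the KChIP Kcnip2 (58.1) and the GIRK pore Kcnj3 (49.9), and the ranges of Kcnma1 (54.4 to 65.2) and Kcnip2 (48.8 to 67.7) overlapped. The highest genes of the other subfamilies were Kcnt1 at 39.4, the fast delayed rectifier Kcnc1 at 33.6, Kcna2 at 28.9, the A-type pore Kcnd2 at 28.7, the leak channel Kcnk1 at 28.3, the M-current subunit Kcnq3 at 25.2, the silent modifier Kcnf1 at 22.8, the ELK channel Kcnh3 at 20.1 and Abcc8 at 5.78 FPKM. The lowest members were Kcnh5 at 1.92 and the leak channel Kcnk10 at 1.999 FPKM, and Kcnj2 stood at 2.84. In aged WT mice, CPM (reads scaled to library size) per kilobase of exon (CPM per kb) again put Kcnab2 first (159). Kcnip2 was second (69.6), and the delayed rectifier Kcnb2 (0.332) and the SK channel Kcnn3 (0.372) were last. Other ranks differed widely between the 2 data sets. Kcnma1 had rank 3 in young vehicle mice but 44 in aged WT mice (1.34 CPM per kb). Kcna2 had ranks 14 and 43 (1.60 CPM per kb), and Kcnq3 19 and 47 (0.823 CPM per kb). The cause was not tested. The locus of Kcnma1 is joined with A830039N20Rik. The 2 scales were normalised separately and are not compared as values.

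**Figure D1:**
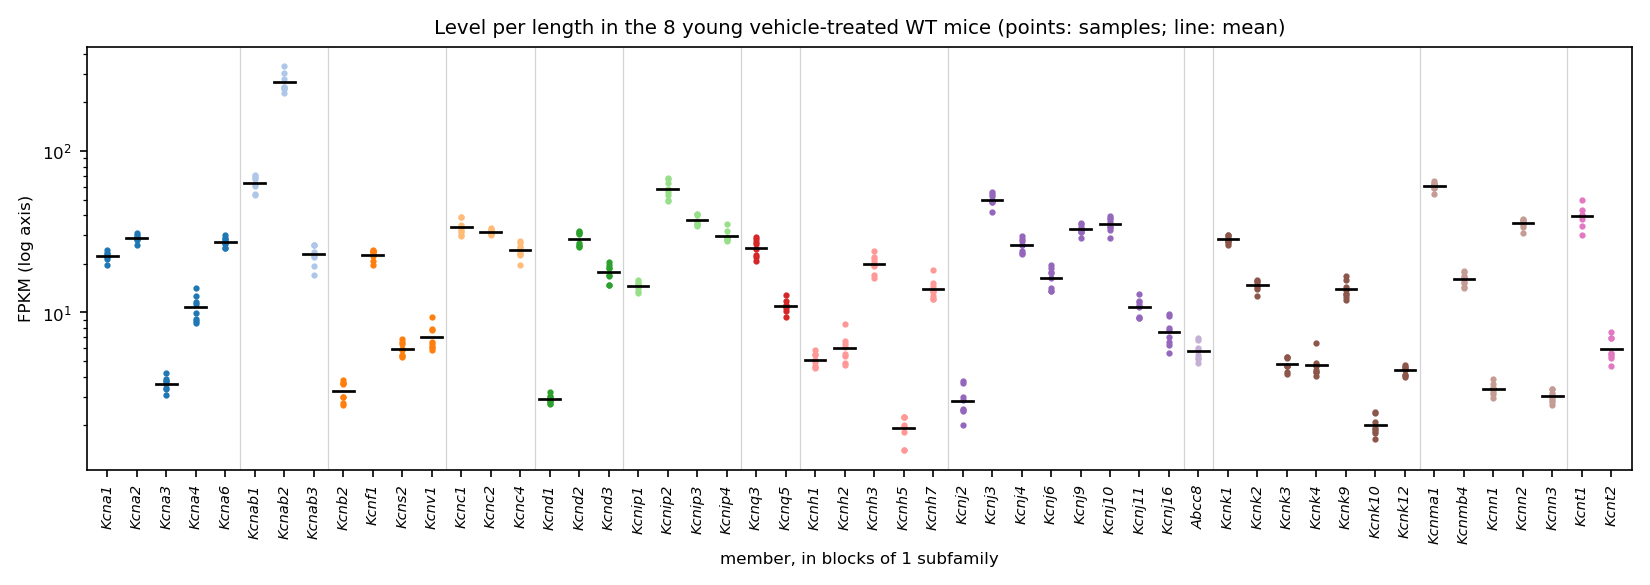
Level per length (FPKM, log axis) of the 52 potassium channel genes in the 8 young vehicle mice, in blocks of 1 subfamily, with a point for each animal and a line at the mean. Kcnab2 stands highest with a mean of 267 FPKM, and Kcnh5 lowest with 1.92 FPKM.

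Aged libraries held 14605459 to 25339482 counts in genes, so that 3 counts corresponded to 0.118 to 0.205 CPM, and the depth of the young libraries is unknown. The targeted transgene could be followed only through reads assigned to mouse App, which ranged from 1853 to 1992 CPM in WT, 2253 to 2716 CPM in APP vehicle and 1781 to 2496 CPM in JQ1-treated APP animals. All 8 pyramidal neuron markers were detected in every group, but 2 WT libraries stood apart. WT replicate 1 had a summed CA3 and CA2 marker level of 434 CPM against 286 to 303 in the other WT libraries, and WT replicate 4 a choroid plexus marker sum of 3170 CPM against 36.1 to 44.5. These libraries were kept. Values without WT replicate 1 are given below for Kcnj2, Kcnv1, Kcnt2, Kcnq5 and Kcnh5. For other members, and for WT replicate 4, leaving out the library is given at most as counts or ranges. In bulk tissue, fewer cells of a type and less RNA per cell cannot be told apart.

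The first comparison asked which channel genes differed after JQ1 in APP animals. Of 52 members, 2 changed: Kcnh5 was higher and Kcnh2 lower in JQ1-treated APP mice (edgeR quasi-likelihood test, Benjamini-Hochberg adjusted p under 0.05 over 16962 genes). Over all genes 1.08% were called, 0.619% higher and 0.466% lower. At an unadjusted p under 0.05, 19 members passed, 9 higher and 10 lower, against 17.6% of all genes (8.42% higher and 9.19% lower), and 14 passed at an exact permutation p under 0.05, against 16.3%. The JQ1 and vehicle groups did not overlap for 0 members upward and 1 downward, against 0.878% and 1.15% of all genes. Log2 fold changes ran from -0.60 for the leak channel Kcnk4 to 1.33 for the Kv1 pore Kcna3, with a median of 0.03 (all genes -0.00105), and 30 members were above 0, against 49.8% of all genes.

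Kcnh5, an EAG-type voltage-gated channel, was the member with the clearest difference. It measured (as TMM-normalised CPM) 2.70, 4.94 and 6.81 CPM (lowest, median, highest of 6) in JQ1-treated APP mice and 1.37, 2.002 and 2.72 CPM in APP vehicle mice. In the 4 WT mice it measured 2.69, 2.54, 2.45 and 2.28 CPM. The lowest JQ1 animal lay just under the highest vehicle animal, and the other JQ1 animals were above all vehicle and WT animals. Means were 4.96 ± 1.42 against 2.08 ± 0.48 CPM (SD, n = 6 each), from 525 and 273 counts in all. The log2 fold change was 1.25 ± 0.22 (SE; 2.38-fold), with an edgeR adjusted p of 0.0073 and a two-sided exact permutation p of 0.0043. The change was 1.24 (edgeR adjusted p = 0.025) after correction for gene GC content. Its gene lies at chr12:74897220-75177332 (minus strand).

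Among the relatives of Kcnh5, only Kcnh2 was called as well. Kcnh2, the ERG channel gene at chr5:24319589-24351604 (minus strand), measured 18.4, 22.8 and 27.3 CPM after JQ1 and 28.8, 30.9 and 34.2 CPM after vehicle in APP mice. All 6 JQ1 animals were below all 6 vehicle animals, a separation downward that no other member showed, while the WT values of 25.5, 26.2, 29.9 and 32.2 CPM overlapped both. The log2 fold change was -0.42 ± 0.10 (edgeR adjusted p = 0.047, exact permutation p = 0.0022, the smallest possible with 6 against 6). With gene GC content corrected it was -0.11 (edgeR adjusted p = 0.79), so the call ended. The call was also lost on leaving out any 1 of 13 of the 16 aged libraries (log2 fold change -0.47 to -0.37). For the closest relative of Kcnh5, Kcnh1, levels of 38.4 to 55.2 CPM (JQ1) and 41.9 to 61.1 CPM (vehicle) overlapped, with a log2 fold change of -0.07 ± 0.10. For the ELK channel Kcnh3 the log2 fold change was -0.35 ± 0.13 (edgeR adjusted p = 0.17), and for the ERG-type Kcnh7 it was 0.47 ± 0.18 (0.18), neither of which passed. With GC content corrected, Kcnh3 stood at -0.13 and Kcnh7 at 0.19.

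**Figure D2:**
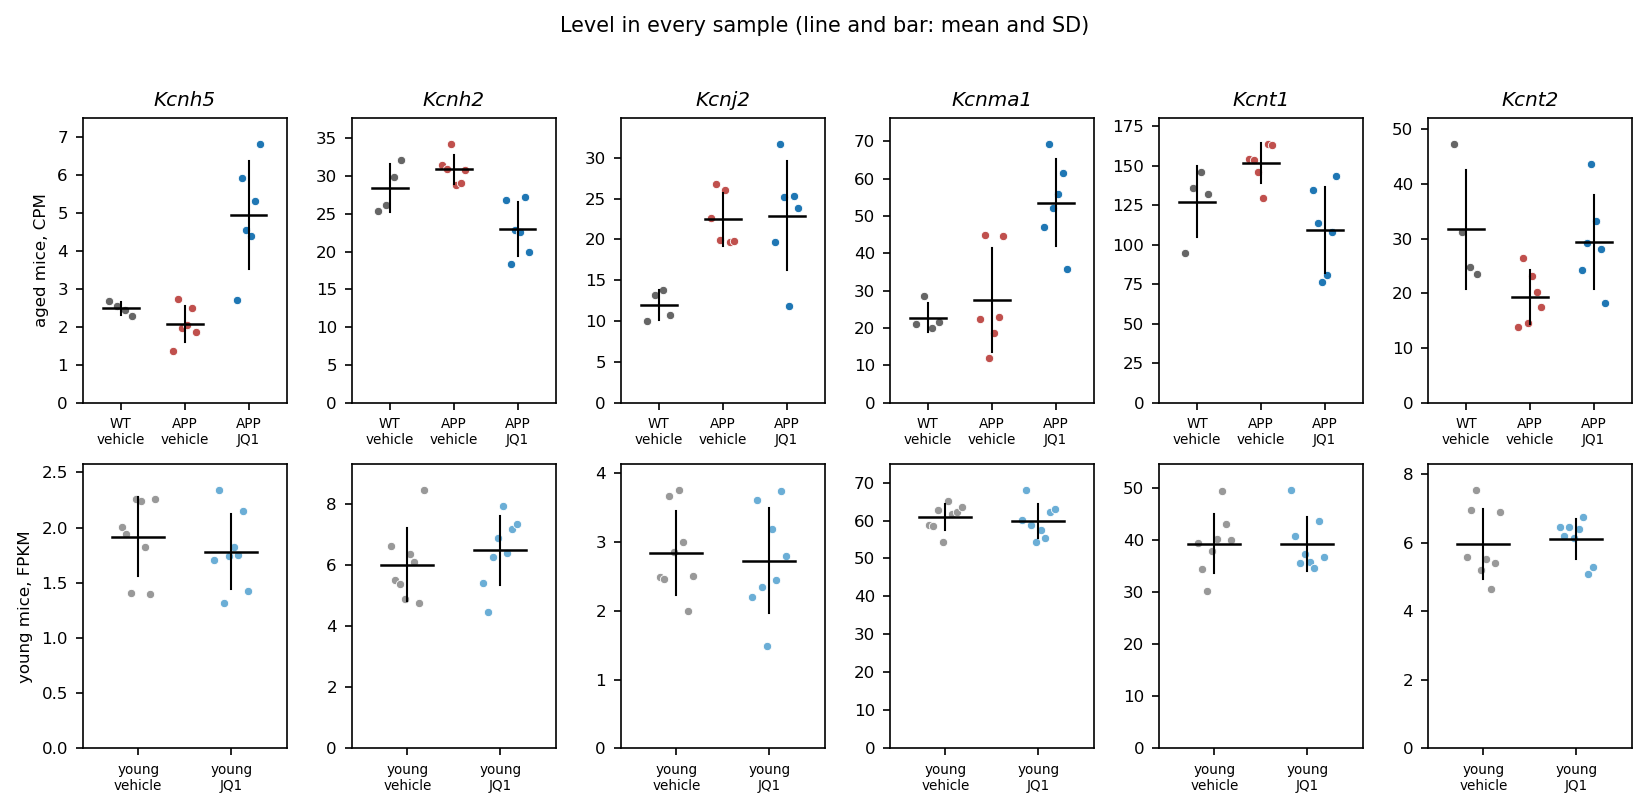
Level of Kcnh5, Kcnh2, Kcnj2, Kcnma1, Kcnt1 and Kcnt2 in every animal, in CPM for the 3 aged groups (upper row) and FPKM for the 2 young groups (lower row), with a line at the mean and a bar for the SD. Kcnh5 reaches 6.81 CPM in JQ1-treated APP mice against at most 2.72 CPM in APP vehicle mice, and all 6 APP vehicle mice are above all 4 WT mice for Kcnj2.

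Sodium-activated channels, which open as sodium enters during firing, differed from each other. Kcnt1 measured 76.1, 111 and 144 CPM after JQ1 and 130, 154 and 164 CPM after vehicle in APP mice, against 94.9, 136, 146 and 132 CPM in WT. Kcnt2 measured 18.3, 28.7 and 43.7 CPM after JQ1 and 13.9, 18.9 and 26.5 CPM after vehicle, against 47.3, 31.2, 24.8 and 23.6 CPM in WT. In each gene the JQ1 and vehicle ranges overlapped, with Kcnt1 mostly lower and Kcnt2 mostly higher after JQ1. Log2 fold changes were -0.47 ± 0.14 for Kcnt1 (edgeR adjusted p = 0.105, exact permutation p = 0.0087) and 0.61 ± 0.22 for Kcnt2 (0.16 and 0.03), so that neither passed. After GC correction they were -0.32 (edgeR adjusted p = 0.47) and 0.25 (0.73). The gene with more GC thus had the negative value and the gene with less GC the positive one.

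The KATP channel, which couples firing to ATP, had both members below 0. Its regulatory subunit Abcc8 measured 33.0, 38.7 and 50.9 CPM after JQ1 and 36.9, 55.2 and 58.8 CPM after vehicle, with WT at 33.2, 52.7, 46.5 and 51.0 CPM. Its pore Kcnj11 measured 7.67, 10.0 and 11.6 CPM after JQ1 and 11.6, 13.1 and 17.5 CPM after vehicle, with WT at 8.52, 14.04, 14.9 and 11.8 CPM. In both genes the groups overlapped, for Kcnj11 by a single pair of near-equal values. The log2 fold changes were -0.42 ± 0.13 for Abcc8 (edgeR adjusted p = 0.123, exact permutation p = 0.022) and -0.46 ± 0.15 for Kcnj11 (0.12 and 0.0043), and neither passed. After GC correction they were -0.23 (edgeR adjusted p = 0.66) and -0.26 (0.67).

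Kcnma1, Kcnb2, Kcnq3 and Kcna3 had values on the other side. Of the 5 calcium-activated channels 4 were above 0, with a median of 0.10. Kcnma1, whose channel opens to calcium and voltage together, measured 35.7, 54.0 and 69.2 CPM after JQ1 and 11.9, 22.6 and 45.01 CPM after vehicle, and 21.1, 28.5, 19.9 and 21.6 CPM in WT. Its JQ1 values overlapped only the upper vehicle values, and the log2 fold change of 0.96 ± 0.28 missed the threshold (edgeR adjusted p = 0.098, exact permutation p = 0.013). Kcnb2 measured 4.36, 6.14 and 8.42 CPM against 2.21, 4.13 and 5.05 CPM, with WT at 4.58, 5.23, 5.23 and 5.07 CPM and a log2 difference of 0.70 ± 0.21 (edgeR adjusted p = 0.10, exact permutation p = 0.017). Kcnq3, a subunit of the M-current, measured 13.4, 22.3 and 30.8 CPM against 5.20, 10.5 and 24.1 CPM, with WT at 5.98, 17.1, 12.2 and 13.2 CPM and a log2 difference of 0.87 ± 0.34 (edgeR adjusted p = 0.20). The Kv1 pore Kcna3 had the largest log2 fold change, 1.33 ± 0.61 (edgeR adjusted p = 0.26, exact permutation p = 0.0087), on 2.64, 3.03 and 4.43 CPM after JQ1 and 0, 1.17 and 2.97 CPM after vehicle. After GC correction the values were 0.87 for Kcnma1, 0.45 for Kcnb2, 0.76 for Kcnq3 and 1.60 for Kcna3. At an adjusted p under 0.05, the study listed Kcnh2, Kcnt1, Kcnt2, Abcc8, Kcnj11 and Kcnb2 for this comparison, and not Kcnh5. DESeq2 called 5 members in place of 2, adding Kcnma1, Kcnt1 and Kcnb2, and over all genes it called 371 higher and 378 lower of 27729, against 105 and 79 of 16962 by edgeR.

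Of the other subfamilies none had a called member. All 5 Kv1 pores and all 4 Kv2 and silent subunits were above 0, with medians of 0.09 and 0.28. Of the 8 inward rectifiers 4 were above 0 (median 0.00467), and of the 7 K2P leak channels 3 (median -0.07). The 4 KChIPs had 1 above 0, the 3 Kv beta subunits 1, the 3 Kv4 pores 2 and the 3 Kv3 pores 1. Microglia, astrocyte and other cell type marker lists had no called gene in this comparison.

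**Figure D3:**
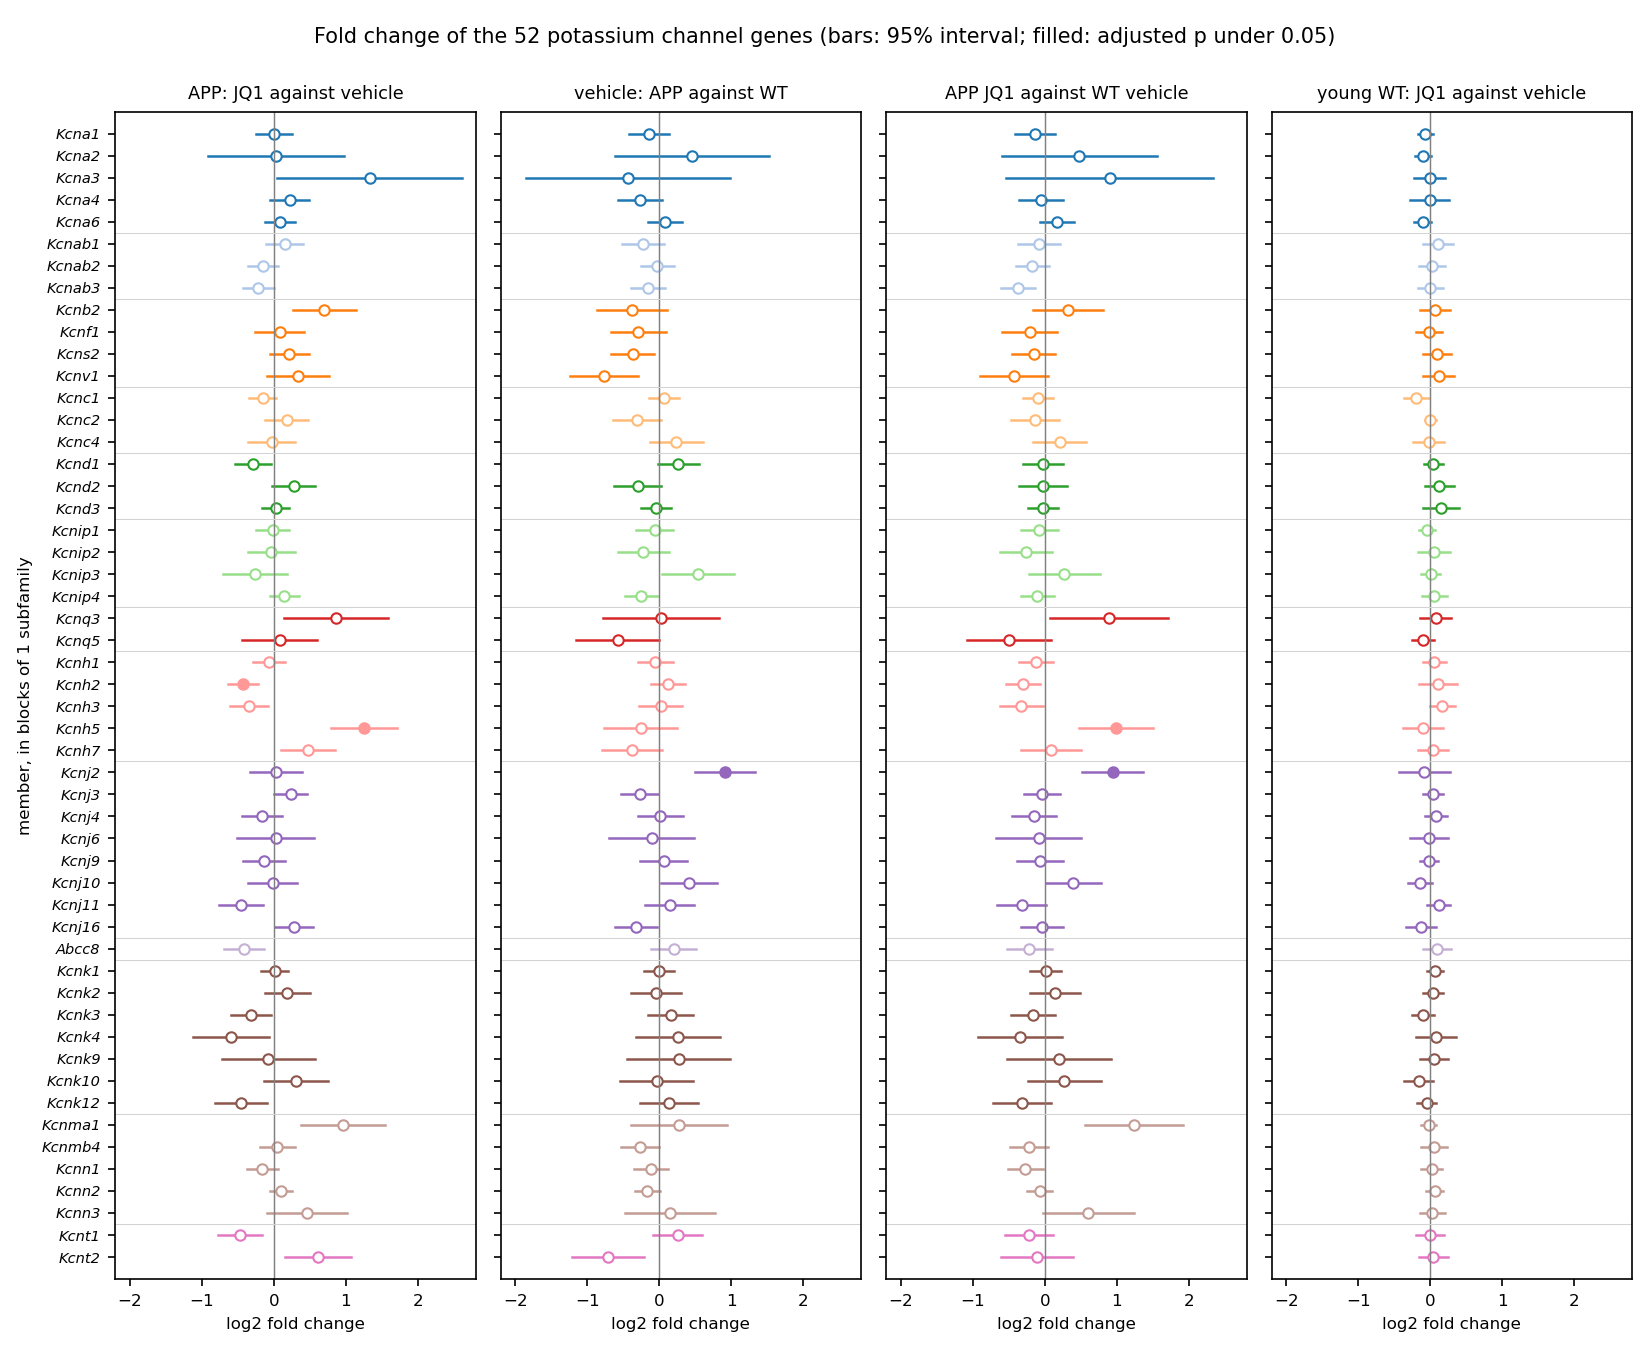
Log2 fold changes of the 52 potassium channel genes in the 4 comparisons, in blocks of 1 subfamily, with bars for 95% intervals and filled symbols for an adjusted p under 0.05. Filled symbols stand at Kcnh5 (1.25) and Kcnh2 (-0.42) for JQ1 in APP mice, at Kcnj2 (0.91) for APP vehicle against WT, at Kcnh5 (0.99) and Kcnj2 (0.94) for JQ1-treated APP against WT, and nowhere for young mice.

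The GC content of the members ran from 36.5% for Kcnt2 to 69.4% (median 50.0%) and went with the size of the JQ1 value in APP mice. Of the 16 members with a GC content of at least 55%, 15 were lower after JQ1 (median log2 fold change -0.21), and of the 13 below 45%, 13 were higher (median 0.28). Over the 52 members, which share the same 12 libraries, Pearson's r between GC content and log2 fold change was -0.529 (rho -0.727), and over all genes it was -0.385. After a spline correction for GC content per library, r over the members was -0.131, and 8 of the 16 GC-rich members were lower (median -0.00186). Of the 13 AT-rich members 12 were higher (median 0.13). That correction takes out the trend over all genes by construction, so the smaller r is not a separate result. The exception among the GC-rich members as counted was Kcna3. Over all genes, the median log2 fold change ran from 0.22 in the bin of genes with a median GC content of 39.8% to -0.25 in the bin with 59.1%.

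The libraries showed the same order. The slope of log2 level on GC content, per 10 percentage points, was -0.229 to 0.0102 in JQ1-treated APP libraries, 0.0754 to 0.215 in APP vehicle libraries, and 0.00817 to 0.0723 in WT libraries except replicate 1 at -0.225. In young mice 6 of the 16 GC-rich members were lower and 9 of the 13 AT-rich members were higher after JQ1. There r was -0.0165 as measured and -0.284 after the GC correction.

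The spread between animals also differed by gene. A coefficient of variation above 40% was found for 7 members in APP vehicle mice, namely Kcna3 (88.5%), Kcna2 (65.2%), Kcnq3 (56.4%), Kcnn3 (51.1%), Kcnma1 (50.7%), Kcnk9 (43.7%) and Kcnip3 (42.0%), against 2 members in WT mice and 0 in JQ1-treated APP mice and in either young group. Over all genes, 17.5% were above 40% in JQ1-treated APP, 16.1% in APP vehicle, 10.9% in WT, 11.5% in young JQ1 and 10.9% in young vehicle mice, so the 7 of 52 in APP vehicle mice were no larger a share than among all genes. The Kv1 pore Kcna2 ran from 3.29 to 48.1 CPM there (median 20.8) and from 19.8 to 40.3 CPM after JQ1 (median 25.4). APP vehicle replicate 3 was the lowest for Kcna2, Kcna3 (0 counts, under 0.118 CPM), Kcnma1 and Kcnq3, and had 15.4% of uniquely aligned reads outside exons. Replicates 2 and 6, with 24.5% and 22.3%, were highest for Kcna2 and Kcnma1. The part of this in the JQ1 comparison was not tested.

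**Figure D4:**
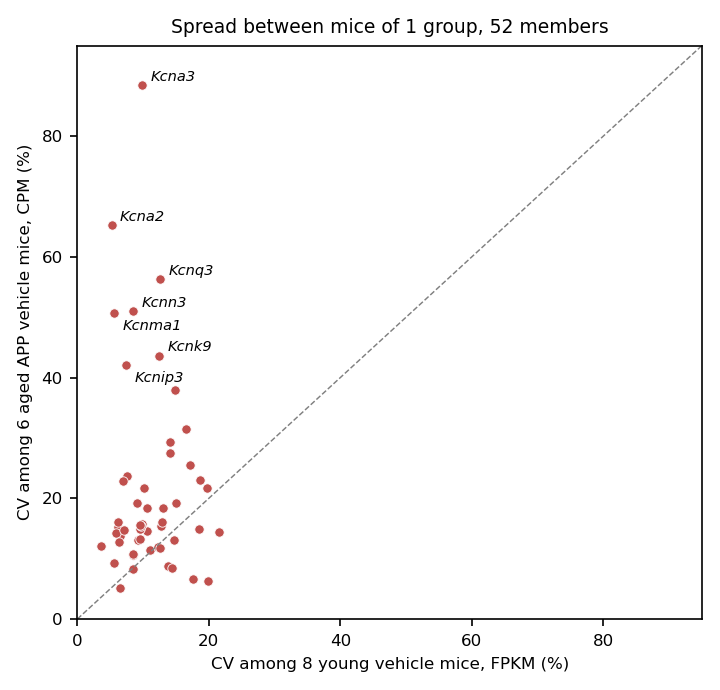
Coefficient of variation (CV, percent) of the 52 members among the 6 APP vehicle mice (CPM, vertical axis) against that among the 8 young vehicle mice (FPKM, horizontal axis), with a dashed line of equality. The 7 named members lie above 40% in APP vehicle mice, led by Kcna3 at 88.5%, and none of the 52 does in young vehicle mice.

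The second comparison asked how APP mice on vehicle differed from WT mice. It shares the APP vehicle libraries with the first comparison. Of 52 members 1 changed, the strong inward rectifier Kcnj2, which was higher (edgeR, 2.57% of all genes called, 2.49% higher and 0.0825% lower). Kcnj2 measured 19.7, 21.3 and 26.8 CPM in APP vehicle mice and 10.0, 13.2, 13.8 and 10.7 CPM in WT mice, so that all 6 APP animals were above all 4 WT animals. The log2 fold change was 0.91 ± 0.20 (1.88-fold; edgeR adjusted p = 0.018, exact permutation p = 0.0048). Without WT replicate 1 it was 0.83 and did not pass (edgeR adjusted p = 0.089), and the call was lost without WT replicate 3 or 5 as well. Kcnj2 lies at chr11:111066164-111076821 (plus strand).

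Cell type markers moved with it: 3 of 6 microglia markers (Cx3cr1, Csf1r and Itgam) and 1 of 6 astrocyte markers (Gfap) were called higher in APP vehicle mice than in WT. The summed level of the 6 microglia markers was 210 to 249 CPM in WT, 386 to 534 CPM in APP vehicle and 228 to 601 CPM in JQ1-treated APP mice, and no marker was at 0. The 6 astrocyte markers summed to 3405 to 3759 CPM in WT and 5325 to 8382 CPM in APP vehicle mice. In APP mice, the JQ1-treated animal with the lowest microglia sum (replicate 4) was also the lowest for Kcnj2 at 11.8 CPM. Their part in the Kcnj2 result was not tested.

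Other members nearest to the threshold did not pass. Kcnj10, the main inward rectifier of astrocytes, measured 187, 217 and 321 CPM in APP vehicle mice and 176, 179, 168 and 169 CPM in WT mice, without overlap, for a log2 difference of 0.41 ± 0.18 (edgeR adjusted p = 0.30, exact permutation p = 0.024). The silent modifier Kcnv1 measured 27.7, 29.9 and 33.3 CPM in APP vehicle mice and 79.3, 41.1, 39.9 and 43.7 CPM in WT mice, also without overlap. Its log2 fold change was -0.77 ± 0.22 (edgeR adjusted p = 0.090, exact permutation p = 0.0048), and -0.48 (0.39) without WT replicate 1, which was the highest WT animal. For the KChIP Kcnip3 it was 0.54 ± 0.24 (edgeR adjusted p = 0.30), and for the silent subunit Kcns2 it was -0.37 ± 0.14 (0.23).

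The value of Kcnt2 also moved with WT replicate 1. Its log2 fold change was -0.72 ± 0.24 (edgeR adjusted p = 0.15), and -0.47 (0.54) without WT replicate 1. The Kv7 pore Kcnq5 had -0.58, and -0.03 without that animal, whose 144 CPM stood against 48.0 to 52.5 CPM in the other WT mice. The study, unlike the edgeR fit here, called Kcnt2 lower in APP vehicle mice than in WT at an adjusted p under 0.05. It also listed Kcnt2 among genes restored in APP mice by JQ1. Among all members 23 were above 0 and 29 below (median -0.05; all genes 0.00927, with 51.6% above 0). After GC correction 12 were above 0 and 40 below (median -0.17; all genes -0.07), and 7 were above 0 when gene length was corrected too and the replicate number entered as a block. At an unadjusted p under 0.05, 3 passed upward and 7 downward, against 9.42% and 5.01% of all genes (14.4% in all), and 11 passed at an exact permutation p under 0.05, against 15.8%. The groups did not overlap for 2 members upward (Kcnj2 and Kcnj10) and 2 downward (Kcnv1 and Kcnj3), against 4.94% and 2.05% of all genes. For the GC-rich members the median was 0.09 and for the AT-rich -0.30, opposite in sign to the first comparison, with which it shares the vehicle libraries. After GC correction these medians were -0.11 and -0.28.

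JQ1-treated APP mice were then compared with WT vehicle mice, a comparison that shares the JQ1-treated libraries with the first and the WT libraries with the second. Of 52 members 2 changed, Kcnh5 and Kcnj2, both higher (edgeR, 2.06% of all genes called, 1.93% higher and 0.13% lower). Kcnh5 differed by 0.99 ± 0.24 on the log2 scale (edgeR adjusted p = 0.042, exact permutation p = 0.014), with all 6 JQ1 animals at 2.70 CPM or more and WT at 2.69 CPM or less, a narrow separation. Kcnj2 had 0.94 ± 0.20 (edgeR adjusted p = 0.019, exact permutation p = 0.024), with 11.8 CPM in JQ1 replicate 4 inside the WT range of 10.0 to 13.8 CPM. With GC content corrected they were 0.90 for Kcnh5 and 0.78 for Kcnj2 and missed the threshold (edgeR adjusted p = 0.061 and 0.058), and without WT replicate 1 they were 1.02 and 0.86 and missed it too (0.075 and 0.060), and leaving out any 1 of the 4 WT libraries left 0 members called. Kcnma1 was above every WT animal in all 6, at 35.7 CPM or more against 28.5 or less, with a log2 fold change of 1.23 ± 0.32 that missed the threshold (edgeR adjusted p = 0.060, exact permutation p = 0.0048).

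Lower in that comparison, but short of the threshold, were the beta subunit Kcnab3 at -0.37 ± 0.11 (edgeR adjusted p = 0.10), Kcnh2 at -0.30 ± 0.11 (0.19) and the SK channel Kcnn1 at -0.27 (0.28). Kcnab3 measured 40.6, 48.5 and 53.9 CPM after JQ1 and 52.3, 59.1, 65.3 and 67.5 CPM in WT, which overlapped narrowly. Of the 52, 17 were above 0 and 35 below (median -0.08; all genes 0.000648, with 50.1% above 0). At an unadjusted p under 0.05, 5 passed upward and 4 downward, against 9.64% and 4.46% of all genes (14.1% in all), and 8 passed at an exact permutation p under 0.05, against 12.1%. The groups did not overlap for 3 members upward (Kcnh5, Kcnma1 and the SK channel Kcnn3) and 0 downward, against 2.55% and 1.17% of all genes.

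In young WT mice the comparison of JQ1 with vehicle called none of the 52 members (limma on log2(FPKM + 0.1), Benjamini-Hochberg over 18420 loci), where 0.00543% of all loci were called. At an unadjusted p under 0.05, 1 member passed, the Kv3 pore Kcnc1, which was lower, against 4.65% of loci (2.09% higher and 2.56% lower), and it also passed at an exact permutation p under 0.05, as 4.74% of loci did. The groups overlapped for all 52 members, against 0.0109% and 0.0163% of loci without overlap upward and downward, and 31 members were above 0, against 51.1% of loci. Kcnc1 measured 22.6, 29.4 and 35.9 FPKM after JQ1 and 29.7, 32.6 and 38.9 FPKM after vehicle, with a log2 fold change of -0.19 ± 0.08 (limma adjusted p = 0.98, exact permutation p = 0.044). The largest value upward was 0.17 ± 0.08 for Kcnh3, at 17.6, 22.8 and 25.6 FPKM against 16.3, 20.1 and 24.1 FPKM, with overlapping groups. The 95% interval of every member lay between -0.44 and 0.40 on the log2 scale, which understates changes of genes with low FPKM.

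The channels called in aged mice had values near 0 for JQ1 in the young. Of these, Kcnj2 was called only against WT, and was 0.03 for JQ1 in APP mice. Kcnh5 measured 1.32, 1.75 and 2.34 FPKM after JQ1 and 1.40, 1.97 and 2.26 FPKM after vehicle, with a log2 fold change of -0.10 (95% interval -0.37 to 0.17; limma adjusted p = 0.98). Kcnh2 had 0.11 (-0.15 to 0.37) and Kcnj2 -0.08 (-0.44 to 0.28). Kcnma1 measured 54.4, 59.5 and 68.0 FPKM against 54.4, 62.0 and 65.2 FPKM, a value of -0.02 (-0.13 to 0.08). The difference between the JQ1 effects in APP and young mice was not tested, because the units differ.

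Beyond the 52, 42 other potassium channel subunit genes were listed, of which 31 were tested in the aged mice. Kcnk6, a leak channel, was called higher in APP vehicle mice than in WT, at 7.20 against 3.80 CPM (log2 fold change 0.92 ± 0.23, edgeR adjusted p = 0.042), and in JQ1-treated APP mice than in WT (0.97, adjusted p = 0.036). None was called for JQ1 in APP mice, where 9 of 31 were above 0 (median -0.12). Of 21 tested partner genes of the channels and 14 potassium pump and cotransporter genes, none was called in the 3 aged comparisons, nor were the 21 and 13 of them tested in young mice. Antisense or neighbouring genes share exonic bases with some members. The largest shares were 39.6% of Kcna6, 31.1% of Kcnj3, 20.8% of Kcnmb4, 13.1% of Kcnk4, 12.2% of Kcnk2 and 8.01% of Kcnk1, with 5.98% of Kcnma1 and smaller ones elsewhere, and since strand use in the counting is not stated, reads from these pairs cannot be told apart.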

How the data were processed

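CA1 RNA was sequenced on a HiSeq2000. Per the labels and methods, the authors processed reads with CASAVA 1.8.2, aligned them to mm10 with STAR (TopHat is also listed) and deposited raw read counts per gene from HTSeq for the aged mice. For the young mice the authors deposited FPKM per locus from Cufflinks and Cuffdiff. Other versions, the annotation and strand use are not given in the sources used here.

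Counts were fitted in edgeR 4.0.16 (R 4.3.3; TMM, filterByExpr, robust quasi-likelihood) in 1 fit of the 16 aged libraries over 16962 genes, and log2(FPKM + 0.1) in limma 3.58.1 (trend, robust) over the 18420 loci that reached 0.5 FPKM in 8 or more samples. Adjusted p-values are Benjamini-Hochberg over all genes tested, with calls under 0.05, and single values were also given two-sided exact permutation tests. GC content came from GENCODE M21 exons (GRCm38), and was known for 98.9% of aged genes. Scripts were tested on simulated data. Counts outside exons were 15.4% to 26.9% of uniquely aligned reads (in genes, outside exons or ambiguous) and were left out of library sizes. No libraries agreed within sampling noise. P-values weigh group differences against the spread between these samples.

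The members and lists were chosen with earlier results of these data known. Values by sample are given for members called in any comparison and the 3 with the smallest p in each direction. They are also given for Kcnt1, Kcnt2 and Abcc8, taken for their qPCR in the study, and the highest of each subfamily. Among the members, the study lists qPCR primers for Kcnt1, Kcnt2, Abcc8 and Kcnh2. Kcnh1, Kcnh7, Kcna3, Kcnab1, Kcnq5, Kcnk4, Kcnk9, Kcnk10 and Kcnn3 fall outside these choices and were named after their values were seen. In the young files Kcnab2, Kcnk4 and Kcnma1 share a locus with a neighbouring gene, and Kcns2, Kcnh3, Kcnj6 and Kcnn2 have several loci, of which that with the highest mean was used. Alternatives were DESeq2 1.42.0, median-ratio (RLE) size factors, other filters and pseudocounts, fits of the compared groups alone, a replicate block, corrections for GC content and length, and leaving out each library. Part of the description of the APP line is not reported here.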

Additional observations from a re-analysis of the deposited data

Results flagged for a closer look

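In 130 groups of samples of the 26 members with values by sample, 6 held an animal far from the rest by Dixon's criterion, where chance alone would give about 6.5 (1 in 20 groups). In WT mice all 3 such animals were replicate 1, with Kcna6 at 67.7 CPM (next 54.2), Kcnv1 at 79.3 CPM (next 43.7) and Kcnk1 at 64.9 CPM (next 89.7). Among APP vehicle mice, replicate 1 was low for Abcc8 at 36.9 CPM (next 51.6). Among JQ1-treated APP mice, replicate 2 was high for Kcna2 at 40.3 CPM (next 26.7). Among young JQ1 mice, replicate 3 was low for Kcnj10 at 23.8 FPKM (next 30.1). For 0 members did every sample move oppositely under JQ1 in APP and in young mice.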

How the results depend on the processing

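For JQ1 in APP mice, 2 members were called, and 1 under RLE scaling, without a filter, in a fit of only the 2 groups, after GC correction, and after correction for GC content and length, against 5 by DESeq2 and 1 to 3 on leaving out a library. Over all genes the same comparison had 105 higher and 79 lower calls, 18 and 1 after GC correction and 371 and 378 by DESeq2. For APP vehicle against WT, 1 was called, and 2 with only the 2 groups fitted, 2 by DESeq2 (Kcnv1 added) and 0 to 2 on leaving out a library, 0 without WT replicate 1, 3 or 5. For JQ1-treated APP against WT, 2 were called, and 1 with no filter, 1 (Kcnma1) with only the 2 groups, 0 after GC correction, 3 after GC content and length correction, 4 by DESeq2 (Kcnab3 and Kcnma1 added) and 0 to 3 on leaving out a library, 0 without any 1 of the WT libraries. Over all genes APP vehicle against WT had 422 higher and 14 lower calls, and 687 and 105 by DESeq2. With only the 2 groups fitted it had 617 and 62. JQ1-treated APP against WT had 327 and 22, then 268 and 75 after GC correction and 685 and 105 by DESeq2. After GC content and length correction it had 329 and 169, and without 1 WT library 11 to 109 higher and 0 to 44 lower. In young mice 0 were called under every alternative run, and on leaving out a library 0.

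Kcnh5 was called for JQ1 in APP mice in all 9 other fits (log2 fold change 1.23 to 1.26) and all 16 fits with a library left out (1.14 to 1.38), whereas Kcnh2 was called in 2 of 9 and 3 of 16. Kcnj2 was called in APP vehicle against WT in 7 of 9 and 13 of 16. In JQ1-treated APP against WT, Kcnh5 was called in 3 of 9 and 6 of 16, and Kcnj2 in 5 of 9 and 12 of 16. Of 656 values of named members under alternatives, 590 kept direction and side of the threshold, 49 lost and 17 gained a call, and 0 reversed. The 590 include results that were uncalled in the main fit and stayed so. Only a result called in the main fit can lose a call, so the 49 losses all belong to the called results counted above. The cause was not tested.

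Replicate numbers were not used as pairs in the main fits. Correlations of same-numbered animals ran from -0.471 to 0.342 in aged and -0.0703 to 0.104 in young mice. Differently numbered animals were not set beside them, so these values do not show whether the numbers pair the samples. With a replicate block, 1 member was called for JQ1 in APP mice, 0 for APP vehicle against WT, 0 for JQ1-treated APP against WT and 0 in young mice, and the same numbers (1, 0, 0 and 0) with the block and the GC content and length correction. Over all genes the block left 64 higher and 23 lower calls for JQ1 in APP mice (105 and 79 without it), 34 and 1 for APP vehicle against WT (422 and 14), and 20 and 1 for JQ1-treated APP against WT (327 and 22). Groups of 4 to 6 animals and 218 to 525 counts for Kcnh5 limit the precision of low genes, and the unknown depth of the young libraries limits that comparison.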
